A study of Astyanax mexicanus with 36 samples.

Results

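The genes of respiratory complex I were followed through oocyte growth in 3 populations of the Mexican tetra, Astyanax mexicanus. Members were taken by name: of 52 genes in the count table whose symbol starts with nduf, the 47 that were also in the normalised table were kept, out of 27420 genes in all. Symbols starting with ndufaf mark assembly factors, of which there were 7, and the other 40 genes were treated as subunits. Ovarian tissue of wild-type, untreated fish about 520 days old was sorted by oocyte size into 4 classes, which the labels call 40um, 40_100um, 100_300um and, for the last, 300um. Oocytes came from the right ovaries of the Pachón and Molino cave populations and of surface fish, with 3 libraries for each population and size and 36 in all. Nothing in the labels ties a replicate to its own fish. The p-values therefore cover the variation among these libraries alone, and part of it may be technical. Whether the labels 40um and 300um stand for limits or centres of a size range is not given.

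Complex I is the NADH dehydrogenase of the inner mitochondrial membrane and the largest enzyme of the respiratory chain. It passes electrons from NADH to ubiquinone through a chain of iron-sulphur clusters in a matrix arm, and pumps protons through a membrane arm whose core subunits are encoded by mitochondrial DNA. The nuclear core subunits carry the chemistry of the matrix arm, the accessory subunits surround and stabilise both arms, and the assembly factors join or modify subunits without staying in the finished enzyme. A growing oocyte builds up the mitochondria that the embryo inherits. Roles given below are known from mammals. The mitochondrially encoded core subunits were not analysed here.

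The 47 genes comprised 7 nuclear core subunits, 9 accessory subunits of the matrix arm, 20 accessory subunits of the membrane arm, the pair ndufa4a and ndufa4b, the copies NDUFS1 (ENSAMXG00000008169) and NDUFS8 (ENSAMXG00000042539), and the 7 assembly factors. The pair was named for complex I, but its mammalian counterpart is also assigned to complex IV. NDUFS1 and NDUFS8 are written in capitals in the files beside ndufs1 (ENSAMXG00000015335) and ndufs8a (ENSAMXG00000038008), and reads could be split between such copies, so their values are uncertain. The 5 genes with an nduf symbol outside the normalised table had few reads over all 36 libraries: 48 for NDUFA4L2, 25 for NDUFV1 (ENSAMXG00000011619), and 0, 3 and 0 for 3 further copies of ndufs4. Transcript lengths were not available, so levels are compared between libraries and never between genes.

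Each library held between 2.99 and 9.35 M reads on genes, of which 4268 to 22017 fell on the 47 members, or 0.133% to 0.269%. The 8 oocyte markers found (such as gdf9 and bmp15) summed to at least 1299 CPM (counts relative to library size after TMM scaling) in every library, and none of them was at 0 in any. The 38 markers of other ovarian, blood and immune cell types found summed to 1199 to 7822 CPM at 40um, against 27.6 to 219 CPM at 40_100um, 99.3 to 517 CPM at 100_300um and 163 to 761 CPM at 300um. In bulk samples, fewer cells of a type and less RNA per cell cannot be told apart. Library numbers in the labels fall into 3 series, for 40um, for both middle sizes and for 300um. Size steps that touch 40um or 300um therefore cannot be told apart from a difference between series, while the step between the middle sizes and every comparison of populations lies within 1 series.

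Summed over the 40 subunits, Pachón oocytes carried the most complex I transcript at each size above 40um. The sum was 2466 ± 381 CPM in Pachón, 1994 ± 145 CPM in Molino and 1743 ± 28.6 CPM in surface oocytes at 40_100um (SD, n = 3 each, here and below). At 100_300um it was 1696 ± 25.4 CPM in Pachón, 1500.3 ± 85.3 CPM in Molino and 1495 ± 84.2 CPM in surface oocytes. At 300um it was 1754 ± 122 CPM in Pachón, 1362 ± 78.7 CPM in Molino and 1352 ± 90.9 CPM in surface oocytes. After TMM scaling, the 3 Pachón libraries lay above all surface libraries at each of these sizes. Molino and surface libraries overlapped at 100_300um and 300um. As a share of all reads on genes, without TMM, Pachón and surface libraries overlapped at 100_300um, but not at 40_100um or 300um. In that overlap the 47 members held 0.189% of reads in Pachón replicate 1 and 0.196% in surface replicate 1. At 40um the sum spread widely, at 2206 ± 814 CPM in Pachón, 1493 ± 155 CPM in Molino and 2034 ± 573 CPM in surface oocytes. By group means, 38 of the 47 members were highest in Pachón at 300um, 33 at 40_100um and 28 at 100_300um. At 40um, 23 members were highest in Pachón, 1 in Molino and 23 in surface oocytes. The share of all genes with their highest mean in Pachón was not counted at any size, so these counts have no background beside them.

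**Figure D1:**
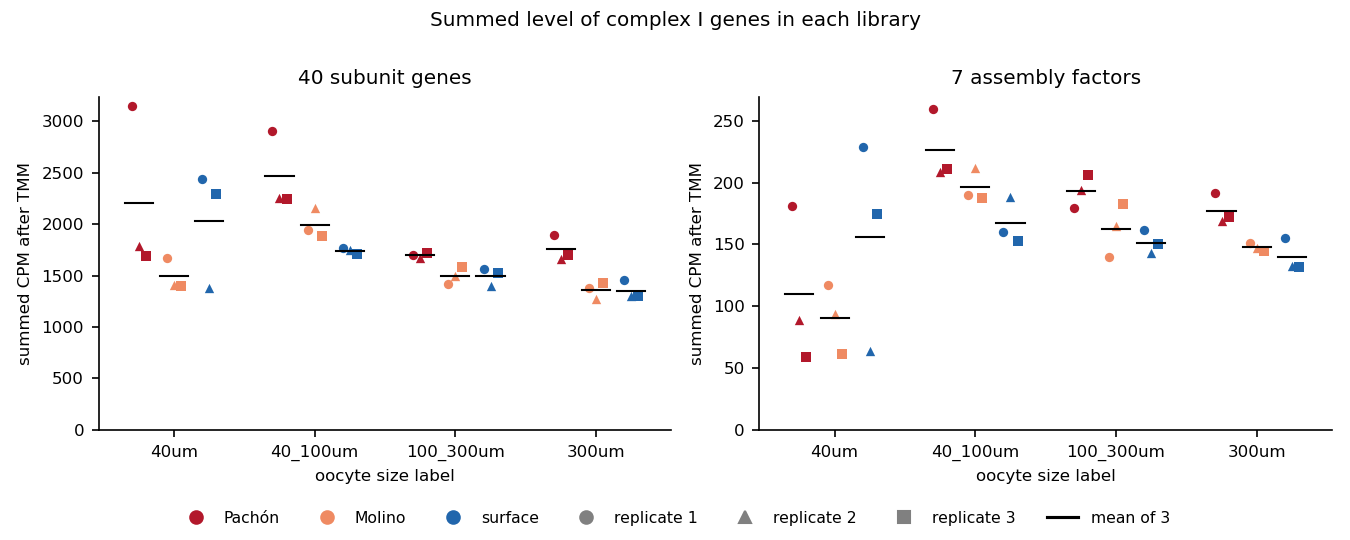
Summed CPM after TMM of the 40 subunit genes (left) and the 7 assembly factors (right) in each of 36 libraries, by oocyte size label and population. Colours mark Pachón, Molino and surface fish, shapes mark replicate numbers and lines mark means of 3. Pachón subunit sums average 1754 CPM at 300um, above the 1362 CPM of Molino and 1352 CPM of surface oocytes.

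Between 40um and 40_100um, 5 of 7 assembly factors rose, while subunits moved in both directions. Averaged over the 3 populations, 22 of 47 members changed at 40_100um relative to 40um, 15 of them higher and 7 lower, in edgeR's quasi-likelihood test with an adjusted p under 0.05. This step changed 73.5% of all 18259 genes tested, 29.8% higher and 43.8% lower. The members' median log2 fold change was 0.15, against -0.32 over all genes. With DESeq2's size factors, which moved the median of all genes by -0.15, the split was 11 higher and 10 lower. Library totals moved that median by 0.10. Of the 7 assembly factors, 5 rose and 1 fell; of the 40 subunits, 10 rose and 6 fell.

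ndufaf7, a methyltransferase that acts in complex I assembly, had the largest rise. Its median was 10.2 CPM (6.93 to 14.8) at 40_100um, against 3.61 CPM (1.77 to 5.27) at 40um, and its log2 fold change was 1.504 (SE 0.14, adjusted p = 2.08e-10). The 9 libraries of each size did not overlap. ndufaf1, which works in the membrane arm intermediate, had a median of 40.1 CPM (29.2 to 70.1) at 40_100um, against 16.97 CPM (6.404 to 30.3) at 40um, a log2 fold change of 1.34 (SE 0.14, adjusted p = 2.25e-09); the lowest library at 40_100um lay just below the highest at 40um. ndufaf3, a factor of the early matrix arm, changed by 1.15 (SE 0.18, adjusted p = 1.87e-06), and NDUFAF6 by 0.98 (SE 0.22, adjusted p = 0.000225) on the log2 scale. ndufaf8, the partner of NDUFAF5, changed by 0.63 (SE 0.24, adjusted p = 0.0179), a call lost without Molino 40_100um replicate 1 (adjusted p = 0.0618), with DESeq2's size factors (0.0707) and in DESeq2's Wald test (0.0534). ndufaf5, which hydroxylates an arginine of NDUFS7, did not pass the test, at 0.03 (SE 0.24, adjusted p = 0.919). ndufaf2, a paralogue of the subunit NDUFA12 that binds late intermediates, fell, with a log2 fold change of -1.46 (SE 0.36, adjusted p = 0.000639).

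Of the subunits, ndufab1a, the mitochondrial acyl carrier protein, and ndufb5, of the membrane arm, rose without overlap between the sizes. ndufab1a had a median of 109.8 CPM (97.1 to 127) at 40_100um, against 61.9 CPM (39.2 to 93.8) at 40um, a log2 fold change of 0.78 (SE 0.11, adjusted p = 1.7e-07). ndufb5 had a median of 42.8 CPM (35.9 to 51.2) at 40_100um, against 31.2 CPM (23.8 to 34.1) at 40um, a log2 fold change of 0.54 (SE 0.09, adjusted p = 7.32e-06). The accessory subunits that rose numbered 3 of 9 in the matrix arm and 7 of 20 in the membrane arm, where 1 also fell. Both were near the share of all genes that rose at this step, 29.8%. None of the 7 nuclear core subunits rose and 2 fell, a smaller share than the 43.8% of all genes that fell. The core subunits that fell were ndufv2 and ndufs8a. ndufv2, an iron-sulphur subunit at the tip of the matrix arm, changed by -0.79 (SE 0.21, adjusted p = 0.00139) on the log2 scale. ndufs8a, which carries iron-sulphur clusters of the matrix arm, changed by -0.48 (SE 0.17, adjusted p = 0.0115). Whether this step differed between populations was not tested. The ndufs8a mean was 11.4 CPM at 40_100um, against 31.1 CPM at 40um, in Pachón. It was 26.9 CPM against 24.6 CPM in Molino, and 47.7 CPM against 52.3 CPM in surface oocytes. The call of ndufs8a was lost in 9 of the 18 runs that left out 1 library, with adjusted p-values of 0.0612 to 0.197: without surface 40um replicate 1, 2 or 3, Pachón 40um replicate 2 or 3, Molino 40um replicate 2, Pachón 40_100um replicate 1, or Molino 40_100um replicate 2 or 3. It was also lost with library totals, with no expression filter and in a fit of the libraries compared alone.

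The largest falls belonged to NDUFS1, ndufa4b and NDUFS8. NDUFS1 had a median of 1.58 CPM (0.264 to 7.41) at 40_100um, against 21.9 CPM (8.95 to 68.6) at 40um, a log2 fold change of -3.67 (SE 0.36, adjusted p = 4.21e-10) with no overlap between sizes. ndufa4b had a median of 0.757 CPM (0.4897 to 4.71) at 40_100um, against 12.9 CPM (3.09 to 30.3) at 40um, a log2 fold change of -3.46 (SE 0.30, adjusted p = 2.74e-11). NDUFS8 changed by -2.96 (SE 0.67, adjusted p = 0.000299) on the log2 scale and was near the limit of detection at every size above 40um. The summed markers of other cell types moved with these genes, at 27.6 to 219 CPM at 40_100um, against 1199 to 7822 CPM at 40um; their part in the falls was not tested. The count for this step moved most when Pachón 40um replicate 1 was left out, the library with the highest oocyte marker sum (14630 CPM) and the highest subunit sum (3144 CPM) of all 36. Without it, 37 members changed, 31 higher and 6 lower, among them 21 of the 22 called with it. With that library, 73.5% of all genes were called at this step. The share without it is not given here, so the count of 37 has no background beside it.

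Between 40_100um and 100_300um 17 of 40 subunits fell and the assembly factor ndufaf7 rose. Averaged over populations, 18 of 47 members changed, 17 lower and 1 higher, against 8.37% of all genes lower, 24.6% higher and 33% changed in either direction. The members' median log2 fold change was -0.37, against 0.19 over all genes, and 41 of the 47 were negative. By role, 3 of 7 core subunits, 5 of 9 accessory subunits of the matrix arm, 8 of 20 of the membrane arm and 1 of the ndufa4 pair fell. Library totals moved the median of all genes by 0.21 and left 6 calls, 3 higher and 3 lower, with a members' median of -0.16. The other settings tried gave 27 to 37 calls, other than the runs that left out 1 library. Those runs gave 14 to 31, with 30 without surface 100_300um replicate 1, 29 without Pachón 40_100um replicate 2 and 31 without Molino 40_100um replicate 3.

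ndufa11, a membrane arm subunit at the contact with other respiratory complexes, had a median of 15.4 CPM (13.4 to 19.1) at 100_300um, against 23.7 CPM (20.5 to 36.5) at 40_100um. Its log2 fold change was -0.70 (SE 0.16, adjusted p = 0.00114), and the sizes did not overlap. ndufa4a had a median of 97.1 CPM (84.8 to 106) at 100_300um, against 151 CPM (109 to 205) at 40_100um, a log2 fold change of -0.62 (SE 0.08, adjusted p = 3.5e-06), again without overlap. The core subunits that fell were ndufv1, which binds NADH and the flavin cofactor, at -0.46 (SE 0.14, adjusted p = 0.0109), its iron-sulphur neighbour ndufs1 at -0.46 (SE 0.13, adjusted p = 0.00785), and ndufs3, of the ubiquinone-reducing part, at -0.43 (SE 0.16, adjusted p = 0.0362). With library totals these 3 did not pass, at adjusted p-values of 0.17, 0.13 and 0.319 in that order. ndufs3 was also lost in 10 of 18 runs that left out 1 library: surface 40_100um replicate 1, 2 or 3, Molino 40_100um replicate 1, or replicate 2 or 3 of any population at 100_300um (adjusted p-values of 0.0517 to 0.0755).

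ndufaf7 was the only member that rose at this step, with a median of 19.1 CPM (12.99 to 33.8) at 100_300um, against 10.2 CPM (6.93 to 14.8) at 40_100um and a log2 fold change of 1.14 (SE 0.13, adjusted p = 5.06e-07). Over the 4 sizes its mean ran 3.65 ± 1.19, 10.2 ± 2.87, 22.9 ± 7.54 and 16.9 ± 4.84 CPM (SD, n = 9 each). The other 6 assembly factors did not pass at this step; ndufaf1 was nearest to the threshold, at -0.35 (SE 0.14, adjusted p = 0.0522).

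Taken by population, the same step changed 8 of 47 members in Pachón (7 lower and 1 higher), against 8.41% of all genes (1.94% lower and 6.46% higher). It changed 6 in Molino (4 lower and 2 higher), against 15.4% (2.49% lower and 12.9% higher), and 1 in surface oocytes (higher), against 3.91% (3.9% higher). The medians over members were -0.49 in Pachón, -0.35 in Molino and -0.19 in surface oocytes, against 0.01, 0.24 and 0.12 over all genes. ndufaf7 rose in each: by 1.24 (SE 0.22) in Pachón, 1.14 (SE 0.22) in Molino and 1.03 (SE 0.22) in surface oocytes on the log2 scale, the surface value losing its call without surface 100_300um replicate 1, surface 40_100um replicate 1 or surface 40_100um replicate 3 (adjusted p-values of 0.0662 to 0.122). ndufa4a fell in both cave populations, with 88.3, 85.3 and 93.3 CPM in Pachón oocytes at 100_300um, against 205, 133 and 151 CPM at 40_100um, and 100.1, 103 and 106 CPM in Molino oocytes at 100_300um, against 167, 175 and 156 CPM at 40_100um. Its log2 fold changes were -0.87 (SE 0.14, adjusted p = 0.000634) in Pachón and -0.69 (SE 0.14, adjusted p = 0.00207) in Molino. In surface oocytes ndufa4a was also lower without overlap, but was not called. It had 98.4, 84.8 and 97.1 CPM there at 100_300um, against 121, 118 and 109 CPM at 40_100um. These 2 genes kept their calls in Pachón and Molino whichever library was left out. The other called members were ndufa3, ndufa11, ndufa12, ndufb7, ndufa9a and ndufb8 in Pachón (-1.14 to -0.67), and ndufa12, ndufs1 and ndufb2 (lower) and ndufs4 (higher, 1.05) in Molino.

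Each of those other calls was lost in 3 or more of the 6 runs that left out 1 library. In Pachón, ndufa9a (adjusted p-values of 0.0571 to 0.199) and ndufb7 (0.0553 to 0.176) were lost whichever of the 6 libraries was left out. ndufa12 was lost without any 1 of them except 40_100um replicate 2 (0.0622 to 0.125). ndufa11 (0.0624 to 0.209) and ndufb8 (0.0591 to 0.142) were lost without 40_100um replicate 1 or any 1 of the 100_300um libraries, and ndufa3 without 40_100um replicate 1 or 100_300um replicate 2 or 3 (0.0635 to 0.209). In Molino, ndufs4 was lost without any 1 library except 40_100um replicate 3 (0.0527 to 0.26), and also with DESeq2's size factors, with no expression filter and without 4 libraries with raised markers of other cell types (replicate 3 of Molino at 100_300um and 300um, surface 100_300um replicate 1 and surface 300um replicate 2), an alternative chosen after seeing the data. ndufb2 (0.0536 to 0.201) and ndufa12 (0.0523 to 0.127) were lost without replicate 1 or 2 of either size, and ndufs1 without 40_100um replicate 1 or 100_300um replicate 1 or 2 (0.052 to 0.115). With library totals all of these calls but that of ndufs4 were lost.

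The counts by population were unstable. In Pachón, 2 to 7 members were called when 1 library was left out: 3 without 100_300um replicate 1, 2 without 100_300um replicate 2, 2 without 100_300um replicate 3, 2 without 40_100um replicate 1 and 5 without 40_100um replicate 3. In Molino the range was 2 to 14: 2 without 100_300um replicate 1, 2 without 100_300um replicate 2, 2 without 40_100um replicate 1, 3 without 40_100um replicate 2 and 14 without 40_100um replicate 3. In surface oocytes it was 0 to 1. With the replicate number as a block, surface oocytes had 2 calls, both higher. With library totals, Pachón kept 1 lower and 1 higher, and Molino 1 lower and 3 higher, while DESeq2's size factors gave Molino 13 lower and 1 higher. The difference of this step between each cave population and surface fish was tested directly. No member passed for Pachón minus surface (2 at an unadjusted p under 0.05; 0.011% of all genes called) or for Molino minus surface (1 at an unadjusted p under 0.05; 0% of all genes called). DESeq2's Wald test also called 0 members in both. The unadjusted counts have no share of all genes beside them.

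**Figure D2:**
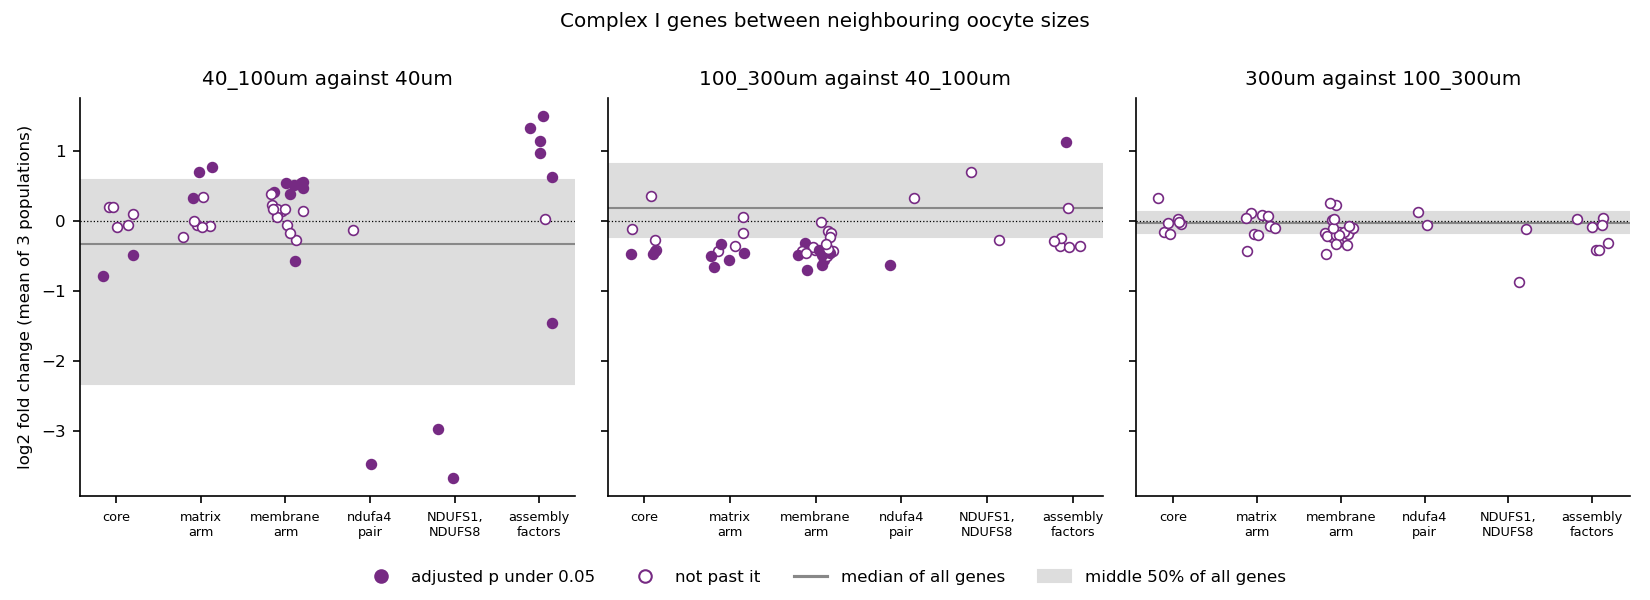
Log2 fold change of each of the 47 complex I genes between neighbouring sizes, averaged over populations, by role (1 point per gene; filled points have an adjusted p under 0.05). The grey line and band give the median and middle 50% of all 18259 genes; 4 assembly factors lie highest at the first step, at the second 17 subunits fall and ndufaf7 rises by 1.14, and at the third no gene is filled.

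Between 100_300um and 300um no member passed the test in edgeR's quasi-likelihood fit, against 0.4% of all genes. At an unadjusted p under 0.05 there were 6, and DESeq2's Wald test called 0. The share of all genes at that unadjusted threshold is not given here. The members' median log2 fold change was -0.10, against -0.03 over all genes, with a range of -0.87 to 0.33. ndufaf7 had a log2 fold change of -0.41 (SE 0.13, adjusted p = 0.246) and a median of 15.1 CPM (12.5 to 26.1) at 300um, against 19.1 CPM (12.99 to 33.8) at 100_300um; the sizes overlapped.

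Between populations, more complex I genes were called higher than lower in Pachón oocytes against either other population at each of the 3 larger sizes. At 100_300um the 6 members called higher for Pachón against surface were near the share of all genes, at 10%. At 40um no member passed in any pair in edgeR's quasi-likelihood fit. The numbers at an unadjusted p under 0.05 were 2 for Pachón against surface, 6 for Molino against surface and 8 for Pachón against Molino, while DESeq2's Wald test called 2, 3 and 2 in that order; edgeR called 2.88% (2.02% higher and 0.861% lower), 0.521% (0.22% higher and 0.302% lower) and 3.18% (1.87% higher and 1.31% lower) of all 15917 genes. In 1 fit of all 36 libraries, 5, 7 and 15 members passed. For the unadjusted counts, the Wald test and that fit, the share of all genes is not given here. In the 40um libraries the subunit sum was highest where the oocyte marker sum was highest, at 3144 CPM of subunits and 14630 CPM of oocyte markers in Pachón replicate 1, and lowest where it was lowest, at 1377 CPM and 1299 CPM in surface replicate 2. Their part in the 40um comparisons was not tested.

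At 40_100um, Pachón against surface gave 15 members higher and 1 lower of 46 tested, against 16.8% and 16.4% of all 14377 genes (33.2% in either direction). The median log2 fold change was 0.40 over members and -0.00 over all genes, and 43 of 46 were positive. Molino against surface gave 10 higher and 3 lower, against 14.1% and 15.4% of all genes (29.5%), with a median of 0.14. With library totals, which moved the median of all genes by -0.12, that split was 4 higher and 6 lower. Pachón against Molino gave 11 higher and 3 lower, against 19.4% and 18.2% (37.6%), with a median of 0.31. The Pachón and surface count was 10 without surface replicate 3 or Pachón replicate 1. The Molino and surface count was 7 in 1 fit of all 36 libraries, 8 without surface replicate 1 or Molino replicate 1 and 6 without Molino replicate 2. The Pachón and Molino count was 9 without Pachón replicate 1.

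At 100_300um, Pachón against surface gave 6 higher and 1 lower of 46, against 10% and 9.86% of all 15494 genes (19.9%), with a median of 0.18. Molino against surface gave 0 higher and 3 lower, against 6.63% and 7.95% (14.6%), with a median of -0.05. Pachón against Molino gave 9 higher and 1 lower, against 13.5% and 11.5% (25%), with a median of 0.24. In 1 fit of all 36 libraries the counts were 3 for Pachón against surface, 1 for Molino against surface and 5 for Pachón against Molino. The Pachón and surface count was 4 without surface replicate 2 or 3 or Pachón replicate 1 or 3. The Molino and surface count was 1 without Molino replicate 2. The Pachón and Molino count was 6 without Pachón replicate 1 or 3 and 4 without Molino replicate 1 or 2. Surface replicate 1 and Molino replicate 3 held raised markers of other cell types at this size (517 and 437 CPM, against 99.3 to 269 CPM in the other 7 libraries). Without surface replicate 1 and Molino replicate 3, Pachón against surface gave 12 higher and 1 lower, and Pachón against Molino 16 higher and 3 lower.

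At 300um, Pachón against surface gave 22 higher and 1 lower of 46, against 15.9% and 16.5% of all 15214 genes (32.4%), with a median of 0.42 and 41 positive. Pachón against Molino gave 23 higher and 1 lower, against 18.5% and 15.9% (34.5%), with a median of 0.47. Molino against surface gave 3 higher and 1 lower, against 7.35% and 9.13% (16.5%), with a median of -0.00. With library totals, the splits were 13 higher and 3 lower for Pachón against surface, where the median of all genes moved by -0.12, and 12 higher and 4 lower for Pachón against Molino, where it moved by -0.16. In 1 fit of all 36 libraries the counts were 6 for Pachón against surface, 5 for Pachón against Molino and 1 for Molino against surface. The Pachón and surface count was 11 without Pachón replicate 1 and 14 without Pachón replicate 3. The Pachón and Molino count was 12 without Pachón replicate 1 and 9 without Molino replicate 2. The Molino and surface count was 2 without Molino replicate 2 or 3. Surface replicate 2 and Molino replicate 3 held raised markers of other cell types (742 and 761 CPM, against 163 to 339 CPM in the other 7 libraries). Without surface replicate 2 and Molino replicate 3, Pachón against surface gave 12 higher and 1 lower.

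The summed oocyte markers also moved with the populations. At 40_100um they were 6088 to 9483 CPM in Pachón, 4597 to 4979 CPM in Molino and 3774 to 4857 CPM in surface oocytes. At 100_300um Pachón and surface overlapped, with 2976 to 4103 CPM in Pachón, 2617 to 2894 CPM in Molino and 2368 to 3053 CPM in surface oocytes. At 300um they were 3634 to 4881 CPM in Pachón, 2359 to 2677 CPM in Molino and 1934 to 3109 CPM in surface oocytes. Their part in the higher complex I levels of Pachón oocytes was not tested. By role, the members higher in Pachón than in surface oocytes at 300um were 2 of 7 core subunits, 5 of 9 accessory subunits of the matrix arm, 11 of 20 of the membrane arm, ndufa4b and 3 of 7 assembly factors.

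**Figure D3:**
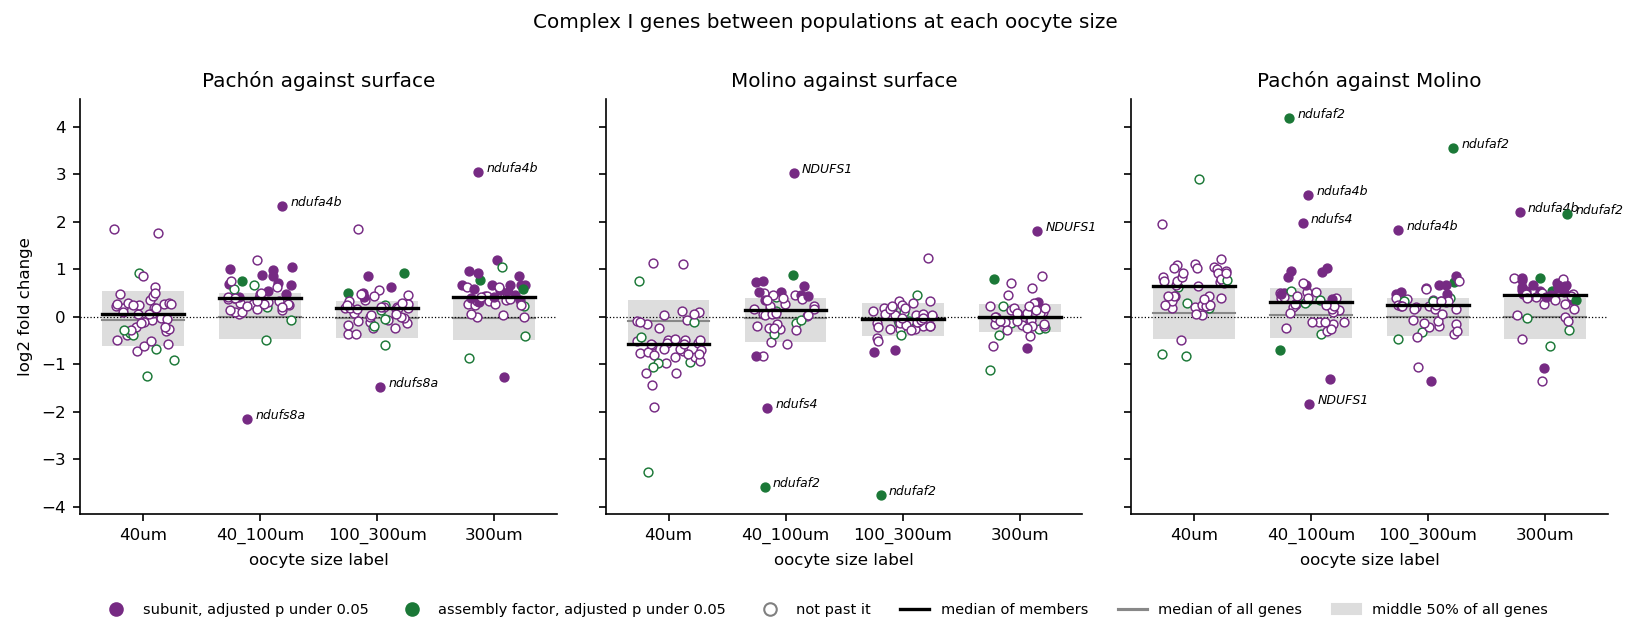
Log2 fold change of each tested complex I gene (1 point per gene) between populations at each oocyte size: Pachón against surface (left), Molino against surface (middle) and Pachón against Molino (right). Filled points have an adjusted p under 0.05, black lines give the members' median, and grey lines and boxes give the median and middle 50% of all genes; at 300um the members' medians are 0.42, -0.00 and 0.47, and at 40um no point is filled.

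Among the nuclear core subunits, ndufs8a was the one called lower in Pachón than in surface oocytes, and it was so at all 3 larger sizes. At 40_100um it had 8.19, 16.5 and 9.43 CPM in Pachón, 24.6, 26.3 and 29.7 CPM in Molino and 53.6, 43.7 and 45.6 CPM in surface oocytes, and no libraries overlapped between populations. The mean in Pachón was 4.19-fold lower than in surface oocytes, with a log2 fold change of -2.14 (SE 0.25, adjusted p = 4.35e-05). At 100_300um it had 11.5, 23.1 and 14.4 CPM in Pachón and 49.7, 44.1 and 33.6 CPM in Molino, against 39.1, 46.5 and 47.7 CPM in surface oocytes, a log2 fold change of -1.48 (SE 0.25, adjusted p = 0.00247) for Pachón. At 300um it had 12.95, 26.9 and 15.8 CPM in Pachón and 40.6, 39.9 and 38.5 CPM in Molino, against 35.8, 56.2 and 43.7 CPM in surface oocytes, a log2 fold change of -1.27 (SE 0.24, adjusted p = 0.00282) for Pachón. At both sizes the Pachón libraries lay below all others and Molino overlapped with surface. Pachón was also lower than Molino at all 3 sizes, with log2 fold changes of -1.31 (SE 0.25), -1.36 (SE 0.25) and -1.08 (SE 0.24) in order of size. These 6 calls held whichever library was left out. Molino was lower than surface at 40_100um alone among the sizes, at -0.84 (SE 0.24, adjusted p = 0.0182), a call lost without surface replicate 1 or Molino replicate 1 or 2 (adjusted p-values of 0.0539 to 0.0679). The copy NDUFS8 had 5, 4 and 0 reads over the 3 Pachón libraries and 9, 12 and 7 over the 3 surface libraries at the 3 larger sizes, too few for a comparison.

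ndufs1 was higher in Pachón than in surface oocytes at all 3 larger sizes. At 40_100um it had 363, 279 and 256 CPM in Pachón and 232, 258 and 281 CPM in Molino, against 177, 176 and 179 CPM in surface oocytes. The log2 fold changes against surface were 0.67 (SE 0.12, adjusted p = 0.00127) for Pachón and 0.53 (SE 0.12, adjusted p = 0.00626) for Molino, and neither cave population overlapped with surface. At 300um it had 221, 186 and 172 CPM in Pachón, against 154, 129.8 and 136 CPM in surface oocytes, a log2 fold change of 0.47 (SE 0.13, adjusted p = 0.0177). At 100_300um the change was 0.41 (SE 0.13, adjusted p = 0.0447), lost without surface replicate 2 or 3 or any 1 of the 3 Pachón libraries (adjusted p-values of 0.0651 to 0.155). ndufs3 was higher in Pachón than in surface oocytes at 300um, with 111, 98.9 and 104 CPM against 78.2, 86.3 and 75.1 CPM and a log2 fold change of 0.40 (SE 0.09, adjusted p = 0.00709). ndufv1 was higher in Pachón than in surface oocytes at 40_100um, at 0.47 (SE 0.12, adjusted p = 0.0105). ndufs7, at the ubiquinone site, did not pass against surface fish at any size in either cave population. For Pachón against surface, the 300um calls of ndufs1 and ndufs3 were not rechecked gene by gene with 1 library left out. Neither were the 40_100um calls of ndufs1 and ndufv1. Nor were these calls given below: ndufa10 and ndufaf5 at 40_100um, and ndufa5, ndufa10, ndufaf1, ndufaf5 and ndufaf7 at 300um.

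ndufv2 did not pass in any comparison of populations, and its spread within Pachón was wide. Its levels in Pachón replicates 1, 2 and 3 were 117, 49.6 and 84.4 CPM at 40um, 64.4, 20.98 and 49.6 CPM at 40_100um, 21.9, 16.3 and 36.1 CPM at 100_300um and 48.2, 23.7 and 51.8 CPM at 300um. Replicate 2 was the lowest of the 3 at every size. For ndufs8a, replicate 2 was the highest Pachón library at the 3 larger sizes, and no other member had a replicate 2 over 1.5 times the mean of the other two at each of them. Replicate 2 was under 0.75 times the mean of the other two at each of these sizes in 3 members: ndufv2, ndufa3 and ndufaf2. These patterns were picked out after the values were seen.

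**Figure D4:**
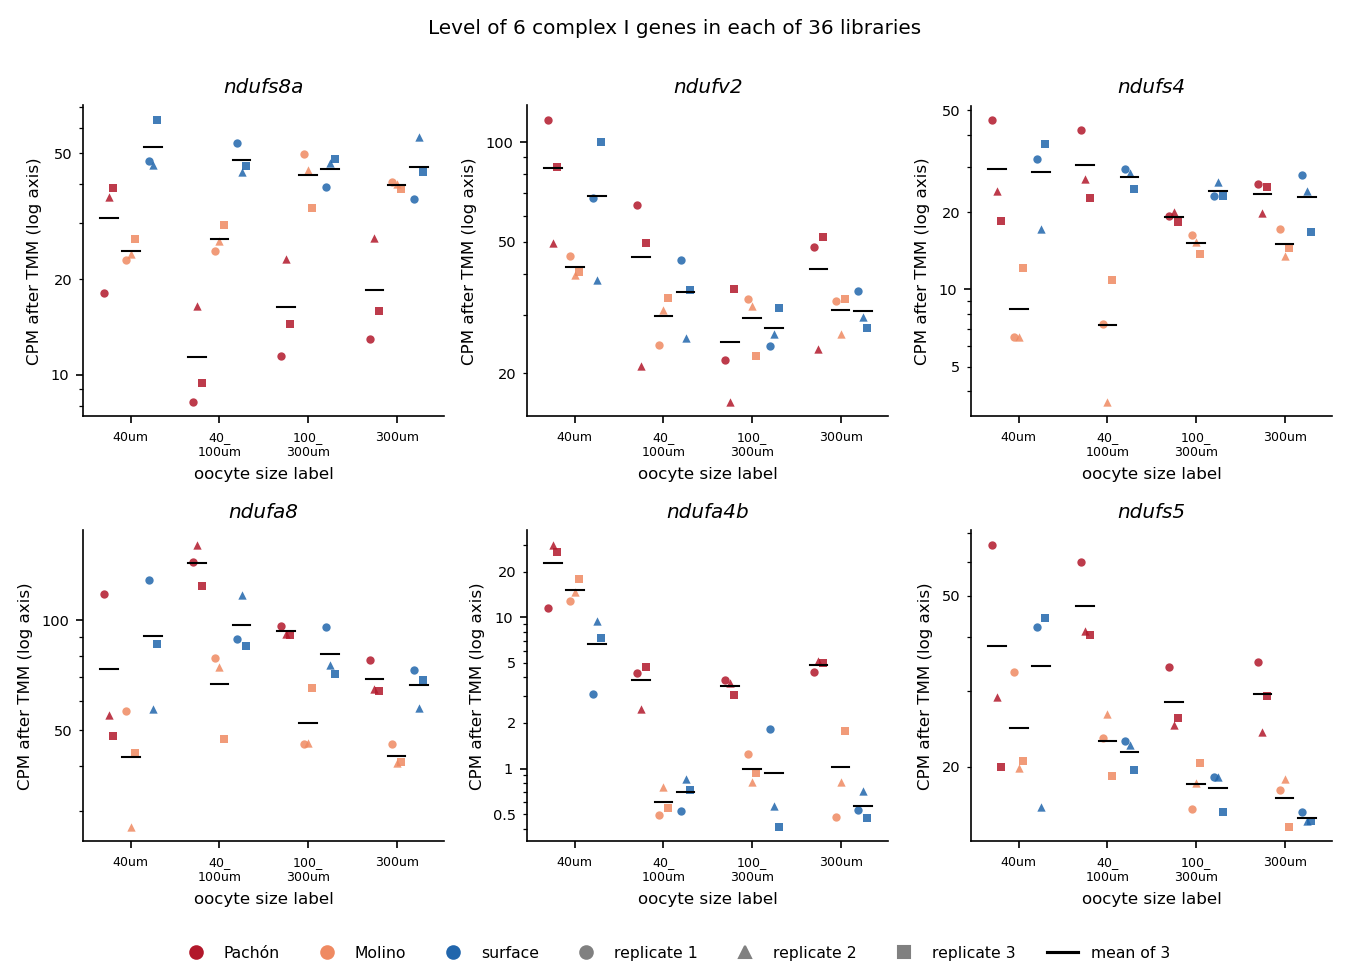
CPM after TMM (log axis) of 6 complex I genes in each of 36 libraries, by oocyte size label; colours mark Pachón, Molino and surface fish, shapes mark replicate numbers and lines mark means of 3. The ndufs8a points of Pachón lie at 8.19 to 16.5 CPM at 40_100um, below all others, the ndufs4 points of Molino lie lowest at 40_100um, and Pachón ndufv2 replicate 2 is the lowest Pachón point at every size.

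Among the accessory subunits of the matrix arm, ndufs4 was lower in Molino. This subunit stabilises the NADH-binding tip of the arm, and its loss in mice causes a fatal brain disease. At 40_100um it had 41.8, 26.8 and 22.8 CPM in Pachón and 7.35, 3.63 and 10.9 CPM in Molino, against 29.5, 28.4 and 24.7 CPM in surface oocytes. The Molino libraries lay below all others and Pachón overlapped with surface. The Molino mean was 3.78-fold lower than that of surface oocytes, with a log2 fold change of -1.92 (SE 0.32, adjusted p = 0.000722), and Pachón was higher than Molino by 1.98 (SE 0.32, adjusted p = 0.000401). At 100_300um ndufs4 had 16.2, 15.3 and 13.8 CPM in Molino, against 23.2, 26.2 and 23.05 CPM in surface oocytes, a log2 fold change of -0.73 (SE 0.16, adjusted p = 0.0126), lost without Molino replicate 2 (adjusted p = 0.0613). At 300um the Molino value was -0.62 (SE 0.21, adjusted p = 0.0648), which did not pass, while Pachón was higher than Molino at 0.66 (SE 0.21, adjusted p = 0.0297). The change of the Molino minus surface difference between both middle sizes was 1.24 (SE 0.47, adjusted p = 0.588), which did not pass. The 3 further copies of ndufs4 held 3 reads in all 36 libraries together.

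ndufa5, another matrix arm subunit, was higher in Pachón than in surface oocytes at all 3 larger sizes. It had 53.5, 37.2 and 42.1 CPM in Pachón, against 17.9, 17.2 and 27.3 CPM in surface oocytes at 40_100um, 29.8, 26.9 and 27.6 CPM against 14.1, 13.2 and 17.6 CPM at 100_300um, and 26.2, 25.3 and 26.3 CPM against 20.4, 12.7 and 15.5 CPM at 300um. The log2 fold changes were 1.00 (SE 0.26, adjusted p = 0.0101), 0.86 (SE 0.17, adjusted p = 0.00501) and 0.67 (SE 0.21, adjusted p = 0.0308) in order of size, without overlap. ndufab1a was higher in Molino than in surface oocytes at 40_100um, at 0.35 (SE 0.11, adjusted p = 0.0299), and at 300um, at 0.31 (SE 0.09, adjusted p = 0.0431). The call at 300um was lost in 5 of 6 runs that left out 1 library, all but that without surface replicate 1 (adjusted p-values of 0.0612 to 0.157). It was also lost with no expression filter, with the replicate block and without the 300um libraries with raised markers of other cell types. ndufa2 was higher in Pachón at 40_100um, at 0.88 (SE 0.26, adjusted p = 0.0179), and at 300um, at 1.19 (SE 0.22, adjusted p = 0.00293). The first of these calls was lost without surface replicate 3 or Pachón replicate 1 (adjusted p-values of 0.0534 to 0.0638).

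Among the accessory subunits of the membrane arm, ndufs5 and ndufa10 were higher in Pachón than in both other populations at the 3 larger sizes. ndufs5, which faces the intermembrane space, had 35.03, 24.1 and 29.3 CPM in Pachón and 17.7, 18.7 and 14.5 CPM in Molino, against 15.7, 14.97 and 14.9 CPM in surface oocytes at 300um. Pachón did not overlap with either. Its log2 fold changes for Pachón against surface were 1.04 (SE 0.20, adjusted p = 0.00149), 0.63 (SE 0.18, adjusted p = 0.0351) and 0.96 (SE 0.18, adjusted p = 0.00298) in order of size. The value at 100_300um was lost without surface replicate 2 or 3 or Pachón replicate 1 or 3 (adjusted p-values of 0.0605 to 0.14). ndufa10 had 86.2, 71.5 and 69.02 CPM in Pachón and 56.5, 46.4 and 55.6 CPM in Molino, against 48.7, 48.7 and 45.7 CPM in surface oocytes at 300um, and its log2 fold changes for Pachón against surface were 0.71 (SE 0.13), 0.50 (SE 0.12) and 0.67 (SE 0.12), with adjusted p-values of 0.00134, 0.0124 and 0.00267. The call of ndufa10 at 100_300um held whichever library was left out. The same pair passed against Molino at each of the 3 sizes, with Pachón higher by 0.48 to 0.96 on the log2 scale. At 100_300um the Pachón and Molino call of ndufs5 was lost without Pachón replicate 1 or Molino replicate 1 or 2 (adjusted p-values of 0.0857 to 0.11), and that of ndufa10 without Molino replicate 2 (adjusted p = 0.0716).

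ndufb11, another membrane arm subunit, passed for Pachón against Molino at 100_300um, at 0.66 (SE 0.20, adjusted p = 0.0311), a call lost whichever of the 6 libraries was left out (adjusted p-values of 0.0553 to 0.11).

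ndufa8, on the intermembrane space side of the membrane arm, was low in Molino. It had 77.9, 65.04 and 64.2 CPM in Pachón and 45.96, 40.7 and 40.9 CPM in Molino, against 73.4, 57.6 and 68.8 CPM in surface oocytes at 300um, where Molino lay below all other libraries. Its log2 fold changes for Molino against surface were -0.54 (SE 0.20, adjusted p = 0.0664) at 40_100um, which did not pass, -0.69 (SE 0.17, adjusted p = 0.018) at 100_300um and -0.66 (SE 0.14, adjusted p = 0.00938) at 300um. The value at 100_300um was lost without Molino replicate 1 or 2 (adjusted p-values of 0.0792 and 0.0902), and that at 300um without Molino replicate 2 (adjusted p = 0.0571). For Pachón against Molino it was 1.02 (SE 0.21), 0.85 (SE 0.17) and 0.71 (SE 0.14) in order of size, and the calls at 40_100um and 100_300um held whichever library was left out.

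ndufa4b had few reads and was higher in Pachón. At 300um it had 4.36, 5.13 and 4.98 CPM in Pachón and 0.477, 0.814 and 1.76 CPM in Molino, against 0.528, 0.706 and 0.471 CPM in surface oocytes, from 114, 23 and 12 reads over the 3 libraries of each. Every Pachón library was above every other, and the Pachón mean was 8.49-fold higher than that of surface oocytes (log2 fold change 3.05 (SE 0.52, adjusted p = 0.00172)). At 40_100um it had 4.31, 2.49 and 4.71 CPM in Pachón and 0.4897, 0.757 and 0.544 CPM in Molino, against 0.527, 0.852 and 0.722 CPM in surface oocytes (log2 fold change 2.34 (SE 0.55, adjusted p = 0.00559) for Pachón against surface). At 100_300um the Pachón and surface value was 1.85 (SE 0.59, adjusted p = 0.0501), just short of the threshold. Pachón was higher than Molino at all 3 larger sizes, by 2.57 (SE 0.57), 1.83 (SE 0.59) and 2.20 (SE 0.48); the call at 100_300um was lost whichever of the 6 libraries was left out (adjusted p-values of 0.0873 to 0.159), and with library totals, no expression filter or the replicate block. The gene was also high in the 40um libraries, where markers of other cell types were high; their part in the differences between populations was not tested. At 40_100um those markers summed to 145 to 219 CPM in Pachón, 27.6 to 137 CPM in Molino and 76.0 to 114 CPM in surface libraries, so every Pachón library was above every other. At 300um they summed to 163 to 339 CPM in Pachón, 211 to 761 CPM in Molino and 252 to 742 CPM in surface libraries.

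Among the assembly factors, ndufaf2 was low in Molino oocytes. It had 10.5, 4.27 and 6.500 CPM in Pachón and 0.326, 0.605 and 0.136 CPM in Molino, against 2.503, 6.58 and 4.19 CPM in surface oocytes at 40_100um, from 137, 7 and 102 reads over the 3 libraries of each. The Molino mean was 12.4-fold lower than that of surface oocytes, with a log2 fold change of -3.59 (SE 0.63, adjusted p = 0.000952). At 100_300um it had 4.27, 3.22 and 5.06 CPM in Pachón and 0.139, 0.204 and 0.7002 CPM in Molino, against 7.53, 3.99 and 2.46 CPM in surface oocytes, from 114, 9 and 114 reads, a log2 fold change of -3.75 (SE 0.67, adjusted p = 0.00399) for Molino against surface. At both sizes all Molino libraries lay below all others. At 300um it had 2.78, 2.44 and 3.83 CPM in Pachón and 0.795, 0.488 and 0.705 CPM in Molino, against 1.45, 1.69 and 1.26 CPM in surface oocytes; Molino against surface was -1.13 (SE 0.47, adjusted p = 0.132), and Pachón against Molino passed at 2.17 (SE 0.45, adjusted p = 0.00446). At 40um Molino had 1.73, 1.004 and 1.96 CPM, against 20.5, 4.75 and 17.5 CPM in surface oocytes, a log2 fold change of -3.27 (SE 0.77, adjusted p = 0.0911) that did not pass. Calls of ndufaf2 at 40_100um and 100_300um held whichever library was left out. The subunit ndufa12, its paralogue, had 22.7, 23.1 and 27.97 CPM in Molino, against 30.7, 23.4 and 26.9 CPM in surface oocytes at 300um, where it did not pass, at -0.15 (SE 0.15, adjusted p = 0.572). At 40_100um ndufa12 had 45.9, 60.4 and 41.1 CPM in Molino, against 34.7, 41.2 and 36.5 CPM in surface oocytes. At 100_300um it had 23.3, 30.2 and 34.4 CPM in Molino, against 34.96, 33.2 and 32.4 CPM in surface oocytes.

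ndufaf1 had its highest mean in Molino at the 3 larger sizes. It had 41.4, 39.8 and 40.1 CPM in Pachón and 63.98, 70.1 and 51.8 CPM in Molino, against 31.4, 39.9 and 29.2 CPM in surface oocytes at 40_100um, where Molino lay above all others. The log2 fold change of Molino against surface was 0.89 (SE 0.17, adjusted p = 0.00159), and that of Pachón against Molino was -0.69 (SE 0.17, adjusted p = 0.00544). At 300um it had 33.6, 25.7 and 27.99 CPM in Pachón and 38.5, 37.9 and 31.5 CPM in Molino, against 20.6, 20.5 and 20.9 CPM in surface oocytes. Both cave populations were higher than surface fish there, at 0.50 (SE 0.15, adjusted p = 0.0285) for Pachón and 0.79 (SE 0.15, adjusted p = 0.00536) for Molino. At 100_300um no pair passed.

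ndufaf7 had its highest mean in Pachón at all 4 sizes, and Pachón was called higher at 100_300um and 300um alone. At 40_100um it had 12.7, 14.8 and 13.5 CPM in Pachón and 7.67, 8.93 and 10.2 CPM in Molino. Surface oocytes had 7.11, 10.3 and 6.93 CPM at that size, so Pachón lay above all others without a call. At 100_300um it had 29.9, 32.8 and 33.8 CPM in Pachón and 17.8, 23.6 and 17.97 CPM in Molino, against 12.99, 19.1 and 17.8 CPM in surface oocytes, and Pachón did not overlap with either. The log2 fold change of Pachón against surface was 0.91 (SE 0.18, adjusted p = 0.00643) at 100_300um and 0.57 (SE 0.18, adjusted p = 0.0294) at 300um. Against Molino it was 0.72 (SE 0.18, adjusted p = 0.0154) and 0.82 (SE 0.18, adjusted p = 0.00541); the call at 100_300um was lost without Pachón replicate 3 or Molino replicate 1 or 3 (adjusted p-values of 0.051 to 0.0671). ndufaf5 was higher in Pachón than in surface oocytes at all 3 larger sizes, at 0.76 (SE 0.18, adjusted p = 0.00539), 0.50 (SE 0.15, adjusted p = 0.0413) and 0.77 (SE 0.15, adjusted p = 0.00383); at 300um it had 51.2, 47.1 and 46.5 CPM in Pachón, against 34.2, 24.6 and 26.1 CPM in surface oocytes. Its call at 100_300um was lost without surface replicate 2 or 3 or any 1 of the 3 Pachón libraries (adjusted p-values of 0.0561 to 0.148). ndufaf3 passed for Pachón against Molino at 300um alone (adjusted p = 0.0499), and NDUFAF6 and ndufaf8 passed in no pair of populations at any size.

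**Figure D5:**
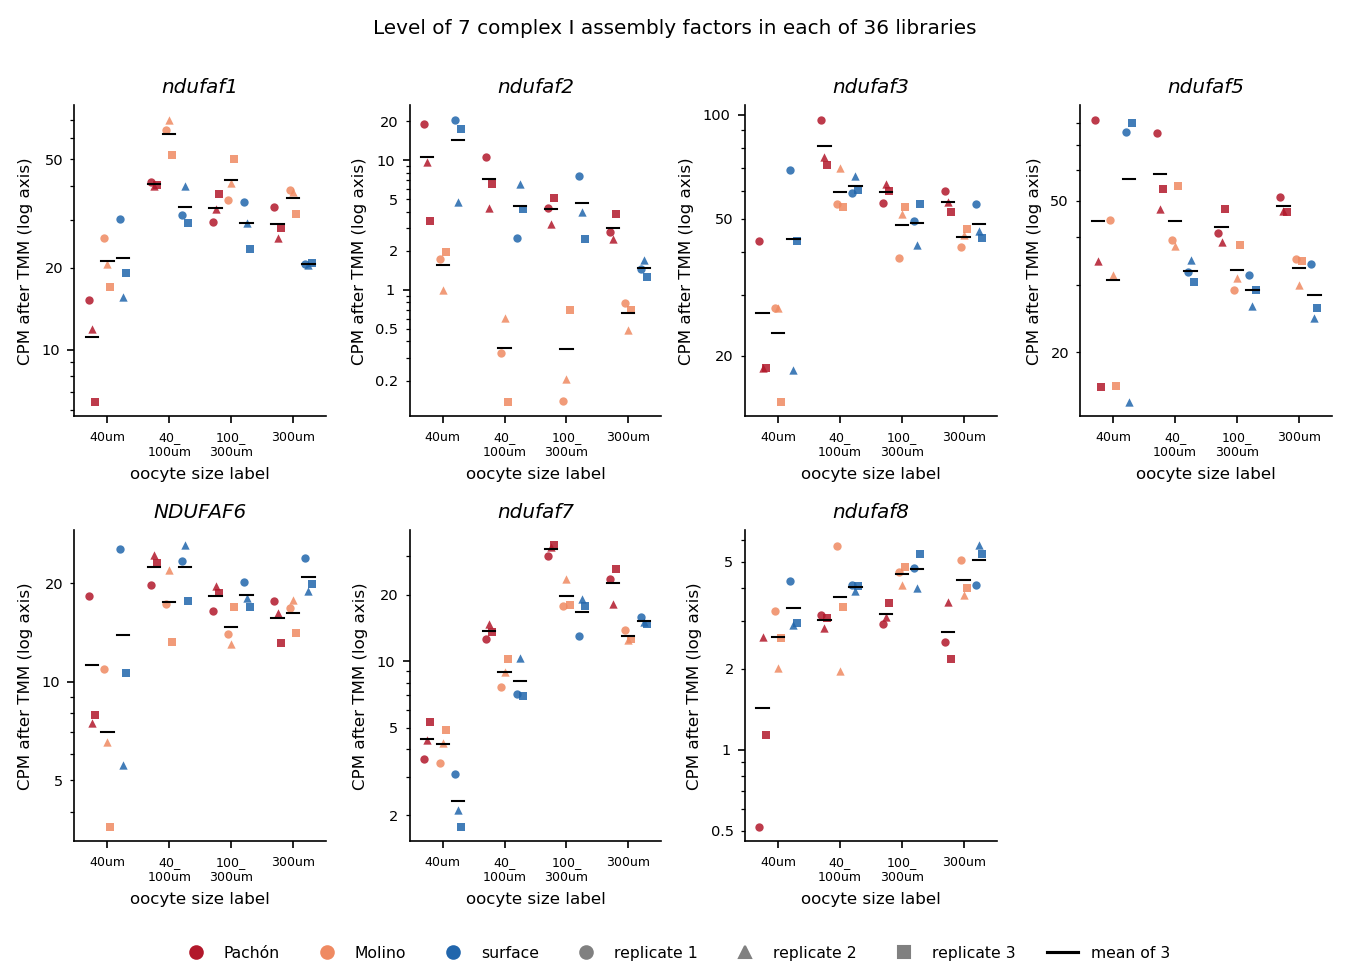
CPM after TMM (log axis) of the 7 complex I assembly factors in each of 36 libraries, by oocyte size label; colours mark Pachón, Molino and surface fish, shapes mark replicate numbers and lines mark means of 3. Molino ndufaf2 points lie at 0.136 to 0.605 CPM at 40_100um, below all others, Molino ndufaf1 points lie highest at that size, and the mean of ndufaf7 is lowest at 40um in every population.

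NDUFS1, the copy in capitals, was higher in Molino. At 40_100um it had 1.44, 1.24 and 2.93 CPM in Pachón and 7.02, 7.41 and 4.76 CPM in Molino, against 0.264, 1.58 and 0.433 CPM in surface oocytes, from 35, 127 and 18 reads. Molino did not overlap with either, and its log2 fold change against surface was 3.03 (SE 0.62, adjusted p = 0.00266). Pachón was lower than Molino at -1.85 (SE 0.57, adjusted p = 0.0217), a call lost without replicate 1 or 2 of either (adjusted p-values of 0.062 to 0.0873). At 300um Molino against surface was 1.81 (SE 0.50, adjusted p = 0.031), lost without surface replicate 1 or 3 or Molino replicate 3 (adjusted p-values of 0.0694 to 0.137). Molino replicate 3, with 761 CPM of markers of other cell types, was the highest Molino library for this gene at 300um. At 40_100um the same markers summed to 27.6 to 137 CPM in Molino, against 76.0 to 114 CPM in surface oocytes.

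Members called in the same direction at all 3 larger sizes numbered 5 higher (ndufa10, ndufa5, ndufaf5, ndufs1 and ndufs5) and 1 lower (ndufs8a) for Pachón against surface, of 46 tested, against 6.8% and 6.9% of all 14077 genes tested at these sizes. For Pachón against Molino they were 5 higher (ndufa10, ndufa4b, ndufa8, ndufaf2 and ndufs5) and 1 lower (ndufs8a), against 8.99% and 7.37%. For Molino against surface there were none at all 3 sizes, against 4.13% of all genes higher and 5.22% lower. At exactly 2 sizes, NDUFS1, ndufab1a and ndufaf1 were higher and ndufa8, ndufaf2 and ndufs4 lower, against 2.91% and 3.84% of all genes. In 1 fit of all 36 libraries, the 40_100um calls of ndufs1 for Molino against surface (adjusted p = 0.108) and of ndufaf1 for Pachón against Molino (adjusted p = 0.0588) were lost. At 100_300um that fit lost the calls of ndufa10, ndufa5, ndufaf5, ndufs1 and ndufs5 for Pachón against surface, of ndufa10, ndufa5, ndufb11, ndufs1 and ndufs5 for Pachón against Molino, and of ndufa8 and ndufs4 for Molino against surface. At 300um it lost those of ndufa3 for Pachón against surface, of ndufa7 and ndufs5 for Pachón against Molino, and of ndufa8, NDUFS1 and ndufab1a for Molino against surface, among the genes named by rule. For Pachón against surface at 300um that fit kept 5 calls higher and 1 lower, among them ndufa2, ndufa4b, ndufb7, ndufs5 and ndufs8a. The 300um calls of ndufa10, ndufa5, ndufaf5 and ndufs1 were not followed gene by gene in it, and by that count most of them were lost. The 2 comparisons of a cave population with surface fish share the surface libraries, and both Pachón comparisons share the Pachón libraries. Same-numbered libraries of 1 population also deviated together across sizes (correlation over 0.1 in 49 of 54 pairs). Calls at several sizes may therefore not be independent of each other.

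Genes of other mitochondrial proteins were counted the same way. Of 53 tested genes of complexes II to V, 21 rose and 9 fell at 40_100um relative to 40um, and 30 fell and none rose at 100_300um relative to 40_100um. The 74 mitochondrial ribosomal proteins gave 49 higher and none lower at the first step, and 3 higher and 13 lower at the second. The 10 complex I assembly factors without an nduf symbol gave 6 and 2 higher at these steps and none lower. None of the 3 lists had a call at the last step. Of all genes, 29.8% rose and 43.8% fell at the first step, and 24.6% rose and 8.37% fell at the second. At the last step 0.4% of all genes changed. For Pachón against surface, complexes II to V gave 19 higher and 3 lower of 52 at 40_100um, 8 higher and 4 lower at 100_300um and 31 higher and 2 lower at 300um. The mitochondrial ribosomal proteins gave 22 higher and 10 lower of 74 at 40_100um, 12 higher and 3 lower at 100_300um and 28 higher and 5 lower at 300um. The shares of all genes in that comparison were 16.8% higher and 16.4% lower at 40_100um. They were 10% and 9.86% at 100_300um, and 15.9% and 16.5% at 300um. At 300um the medians were 0.42 for complexes II to V and 0.37 for the mitochondrial ribosomal proteins, beside 0.42 for the complex I genes.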

How the data were processed

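Bulk RNA-seq counts of 36 libraries were used. The authors deposited whole-number read counts per gene, and a scaled signal table that equals CPM after edgeR's TMM scaling to within a relative difference of 5e-15. The upstream tools were STAR 2.7.10b and RSEM, per the submitters' processing notes; their settings, the genome build and whether counting used strand are not given in the sources used here. Per the labels' protocols the kit was directional, and input mass and PCR cycles varied. From the deposited counts, edgeR 4.0.16 (R 4.3.3, limma 3.58.1) was fitted with filterByExpr (minimum count 10, minimum total 15), TMM and the robust quasi-likelihood test, with Benjamini-Hochberg adjustment over all genes tested and a threshold of 0.05. Size steps used 1 fit of 36 libraries, and populations 1 fit of 9 libraries per size. Alternatives were DESeq2 1.42.0, other scalings, no filter, a replicate block, other sets of libraries and leaving out each library. The procedure was tested on simulated data. No column of per-sample values was left unmapped. Libraries held 2.99 to 9.35 M assigned reads, and their number limits the precision.

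Members and lists were chosen with earlier results of these data known. The values of 1 core subunit are not reported here. Genes were named where at most 10 members were called in a comparison, and otherwise by the 5 largest changes in each direction among called members without overlap; the other core subunits and the assembly factors were always named, and other genes named were chosen after their values were seen. Single calls were rechecked under other settings and with 1 library left out only where the gene was named by size of change or number called in that comparison. Core subunits and assembly factors were also rechecked at the size steps averaged over populations. Any other call was not rechecked gene by gene. Same-numbered libraries of 1 population deviated together across sizes (correlation over 0.1 in 49 of 54 pairs), and those of different populations did so in 14 of 36. By that check the numbers pair the libraries at the first and last steps and at the middle step in surface and Pachón oocytes. The main tests did not use this pairing, so their p-values for the size steps ignore it. With the replicate number as a block, the steps averaged over populations gave 24, 27 and 0 calls in order of size. Without it they gave 22, 18 and 0. Of all 18259 genes tested, 14013, 7388 and 195 were called with the block, against 13423, 6022 and 73 without it.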

Additional observations from a re-analysis of the deposited data

How the results depend on the processing

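Of 133 counts of called complex I genes under other settings, apart from those that left out 1 library, 98 were within 1.5 times the main count. That number includes comparisons with 0 calls under both settings, and it leaves direction aside. Molino against surface at 40_100um was so included with library totals, with 4 higher and 6 lower, against 10 higher and 3 lower. For the middle step averaged over populations (main 18), the counts were 30 with DESeq2's size factors, 6 with library totals, 28 with no expression filter, 33 with DESeq2's Wald test, 37 in a fit of the libraries compared alone and 30 without the 4 libraries with raised markers of other cell types, an alternative chosen after seeing the data. In Pachón (main 8) they were 2 with library totals, 18 with the Wald test and 29 in the fit of the libraries compared. In Molino (main 6) they were 14 with size factors, 20 with the Wald test and 22 in the fit of the libraries compared. In surface oocytes (main 1) they were 0 in that fit and 0 without the 4 libraries. At 40um (main 0), the Wald test gave 2, 3 and 2, and 1 fit of all 36 libraries gave 5, 7 and 15 for Pachón against surface, Molino against surface and Pachón against Molino. That fit gave 7 for Molino against surface at 40_100um, 3, 1 and 5 for the same 3 pairs at 100_300um and 6, 1 and 5 at 300um. Without those of the 4 libraries that had the size compared, Pachón against surface gave 13 at 100_300um and 13 at 300um, and Pachón against Molino 19 at 100_300um. With the replicate block the counts were 2 for the surface middle step, 11 for the Molino middle step, 2 for Pachón against surface and 2 for Pachón against Molino at 40um, and 4 for Pachón against surface at 100_300um; the block moved no other count by over 1.5 times. The cause of these changes was not tested. Apart from the block at the steps averaged over populations, shares of all genes called under other settings, or with 1 library left out, are not given.

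Leaving out 1 library gave 20 to 37 calls at the first step, 14 to 31 at the middle step and 0 to 0 at the last. By population the middle step gave 0 to 1 in surface, 2 to 7 in Pachón and 2 to 14 in Molino oocytes, and both tests of its difference between populations 0 to 0. For Pachón against surface the ranges were 0 to 0, 10 to 16, 4 to 9 and 11 to 29 in order of size. For Molino against surface they were 0 to 2, 6 to 15, 1 to 4 and 2 to 6, with the 2 at 40um reached without surface replicate 2. For Pachón against Molino they were 0 to 1, 9 to 14, 4 to 9 and 9 to 20, with the 1 at 40um reached without Pachón replicate 3. The log2 change of ndufs7 at the first step ranged from -0.11 to 0.29 when 1 library was left out, and changed sign without Pachón 40um replicate 1, at 0.29 (edgeR's quasi-likelihood test, adjusted p = 0.0483). Low read numbers limit NDUFS8, ndufa4b, ndufaf8, ndufaf2 and NDUFS1.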
